A study of Homo sapiens with 5 samples.

Results

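RNA polymerase II (RNAPII) occupancy at promoters was compared between CFAP20-KO cells and WT cells, using ChIP-seq of RPB1, the largest RNAPII subunit. The members are the transcription start sites (TSSs) that the deposited density files of CFAP20-KO replicate 1 and WT replicate 1 both hold and that the deposited TSS table lists. They number 9797 of 9944 listed TSSs and belong to 9777 genes. The listed annotation calls 5974 of them protein_coding and 3497 lncRNA. No measured value entered this choice.

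Both lines derive from RPE1, retinal pigment epithelial cells of human origin made immortal with hTERT, and both carry the background that the labels write as iCas9 p53/puro-dKO. CFAP20-KO lacks CFAP20 in addition, and WT does not. Cells of both groups were untreated, and each immunoprecipitation took 28 µg of chromatin and 40 ng of Drosophila chromatin as a spike-in. Another line, CFAP20/CCNC-dKO, which also lacks cyclin C, is cited only where its values bear on a result. It shares the WT library with the comparison made here. Its immunoprecipitation took less of each input, 22 µg of chromatin and 32.6 ng of Drosophila chromatin. Whether CFAP20-KO is 1 clone is not given in the sources used here. The labels name an RPB1 antibody of one supplier for CFAP20-KO and of another for WT, and the catalogue number given for WT is also that of the spike-in antibody, so that label may be wrong. The antibody therefore cannot be told apart from the genotype.

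RNAPII does not run evenly along a gene. After initiation it pauses a short distance into the transcription unit, held by negative elongation factor and DSIF, until the kinase P-TEFb releases it into the gene body. Most active human promoters also start a second polymerase in the opposite direction, which leaves a divergent signal upstream of the gene. CFAP20 is a conserved protein named for its place in cilia and flagella, and the series asks what it does in the nucleus, in transcription and replication.

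Density was averaged in 4 windows around each TSS and in a distal one that serves as a local baseline. Distances run along the gene. The distal upstream window lies from -4500 to -2000 bp, the divergent upstream window from -1000 to -200 bp, the promoter window from -200 to 500 bp and the early body from 500 to 2000 bp. The gene body window lies from 2000 to 5000 bp and is used for the 8463 TSSs in genes of at least 5000 bp. All levels are RNAPII densities on the authors' spike-in scale. Ratios are CFAP20-KO over WT.

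Depth was unequal. The TSS windows held 423166 equivalent read pairs in CFAP20-KO, 12.5% of the 3383571 in WT. The promoter window of a TSS held a median of 2.92 pairs in CFAP20-KO and 22.1 pairs in WT. Fragments covered 298 bp in CFAP20-KO and 145 bp in WT, so the CFAP20-KO profile is blurred over a longer stretch. With 1 library on each side no test between genotypes was possible, no p-value is given, and intervals cover counting error only. No TSS of CFAP20 is among the members, so the knockout could not be checked at its target. Of the RPE1 markers, 3 of 9 were measured, with promoter densities from 0.397 to 19.4 in CFAP20-KO and from 0.519 to 13.6 in WT. The 3 measured hepatocyte markers lay between 0.353 and 0.508 in CFAP20-KO and between 0.354 and 0.465 in WT, and the 2 muscle markers between 0.371 and 0.898 in CFAP20-KO and between 0.284 and 0.338 in WT. The 3 measured lymphocyte markers lay between 0 and 0.560 in CFAP20-KO and between 0.263 and 0.424 in WT, and the 2 neuronal ones between 0.150 and 0.263 in CFAP20-KO and between 0.318 and 1.05 in WT. In CFAP20-KO the highest muscle, hepatocyte and lymphocyte values lay above the lowest RPE1 marker, as the highest neuronal value did in WT. The marker sets thus overlapped.

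The promoters of 5 genes on which the results below turn are shown first. Each is 280 bases of hg38, read 5′ to 3′ along the gene, beginning 250 bases before the listed TSS. CYR61 (chr1:85580511-85580790, plus strand), EIF1 (chr17:41688643-41688922, plus strand), EEF1A1 (chr6:73521003-73521282, minus strand) and UBE2S (chr19:55407748-55408027, minus strand) are among the 8 promoters with the highest WT density. POM121C (chr7:75486242-75486521, minus strand) is among the promoters furthest below WT in CFAP20-KO. Capitals mark every match to TATAAA on the gene's strand between -40 and -15 bp, and every match to CCAAT or GGGCGG on either strand.
CYR61: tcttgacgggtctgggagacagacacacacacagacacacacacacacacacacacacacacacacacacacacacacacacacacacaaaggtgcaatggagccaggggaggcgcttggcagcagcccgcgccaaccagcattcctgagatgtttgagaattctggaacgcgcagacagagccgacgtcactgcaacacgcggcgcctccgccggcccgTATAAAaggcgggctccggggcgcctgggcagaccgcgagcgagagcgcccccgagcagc
EIF1: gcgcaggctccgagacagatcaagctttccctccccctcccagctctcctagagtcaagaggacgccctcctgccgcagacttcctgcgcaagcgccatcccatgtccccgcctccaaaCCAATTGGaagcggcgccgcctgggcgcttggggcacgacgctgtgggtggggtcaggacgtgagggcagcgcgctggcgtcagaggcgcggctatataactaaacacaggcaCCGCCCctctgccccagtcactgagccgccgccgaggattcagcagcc
EEF1A1: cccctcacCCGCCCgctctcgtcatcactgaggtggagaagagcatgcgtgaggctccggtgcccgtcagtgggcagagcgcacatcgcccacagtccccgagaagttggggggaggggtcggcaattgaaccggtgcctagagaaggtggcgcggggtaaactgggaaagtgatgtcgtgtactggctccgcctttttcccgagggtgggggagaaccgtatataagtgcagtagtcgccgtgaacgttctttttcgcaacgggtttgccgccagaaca
UBE2S: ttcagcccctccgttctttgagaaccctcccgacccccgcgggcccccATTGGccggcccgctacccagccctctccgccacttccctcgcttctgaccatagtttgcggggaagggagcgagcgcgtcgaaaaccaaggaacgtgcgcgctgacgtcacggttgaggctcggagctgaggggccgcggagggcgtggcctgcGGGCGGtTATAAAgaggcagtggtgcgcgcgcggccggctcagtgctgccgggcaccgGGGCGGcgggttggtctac
POM121C: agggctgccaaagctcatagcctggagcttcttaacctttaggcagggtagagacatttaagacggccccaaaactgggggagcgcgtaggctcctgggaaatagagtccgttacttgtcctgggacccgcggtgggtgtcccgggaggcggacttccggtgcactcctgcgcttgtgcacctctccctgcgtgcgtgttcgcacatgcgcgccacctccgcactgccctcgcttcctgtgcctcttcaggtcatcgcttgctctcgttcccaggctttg
The TATAAA of CYR61 starts at -30 bp and that of UBE2S at -40 bp, and the other 3 promoters show none in this window. Among all 9797 promoters, each taken over 300 bases, 1.81% held TATAAA at that distance, 36.6% held CCAAT and 36.8% held GGGCGG. A match describes the letters and says nothing of a bound factor.

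Over all TSSs the CFAP20-KO and WT profiles had the same outline: a low distal level, a shoulder upstream, a summit just inside the gene and a slow fall into the body. Mean promoter density was 0.832 in CFAP20-KO and 0.805 in WT, a ratio of 1.03. The flanks of the peak differed more than the peak did. Divergent upstream density was 0.566 in CFAP20-KO and 0.517 in WT, a ratio of 1.10. Early body density was 0.504 in CFAP20-KO and 0.468 in WT, a ratio of 1.08. The distal level was 0.397 in CFAP20-KO and 0.387 in WT, and gene body density 0.414 in CFAP20-KO and 0.40 in WT. The ratio of promoter to gene body density, a common measure of pausing, was 2.08 in both libraries.

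The pause peak stood at 90 bp in CFAP20-KO and at 80 bp in WT. Its summit was lower in CFAP20-KO, 0.960 against 1.09 in WT. Its width, taken midway between the distal level and the summit, was 760 bp in CFAP20-KO and 360 bp in WT. The longer fragments of CFAP20-KO bear on these values. When WT coverage was given the spread of the longer CFAP20-KO fragments by a 270-bp running mean, the WT summit became 0.963 at 90 bp and its width 630 bp. The summit of 0.960 in CFAP20-KO then stood beside 0.963 in WT, while the peak of CFAP20-KO was still the wider one, by 130 bp.

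The same held for the highest BrU-seq quartile, where the summit was 2.4 in CFAP20-KO and 2.86 in WT, or 2.43 in WT with the running mean. Read in 100-bp steps over all TSSs, the lowest ratio lay from 0 to 100 bp, with 0.938 in CFAP20-KO and 1.02 in WT, a ratio of 0.920 that became 0.996 with the running mean. The highest lay from -500 to -400 bp, with 0.606 in CFAP20-KO and 0.533 in WT, a ratio of 1.14 that became 1.12. With the 270-bp running mean the lower value at the summit nearly vanished, and the higher value on the upstream side did not. With WT smoothed over 150 bp instead, its summit over all TSSs was 1.04, still above the 0.960 of CFAP20-KO. In the highest quartile the WT summit likewise stayed above that of CFAP20-KO. The size of the summit difference thus depended on the smoothing chosen.

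**Figure D1:**
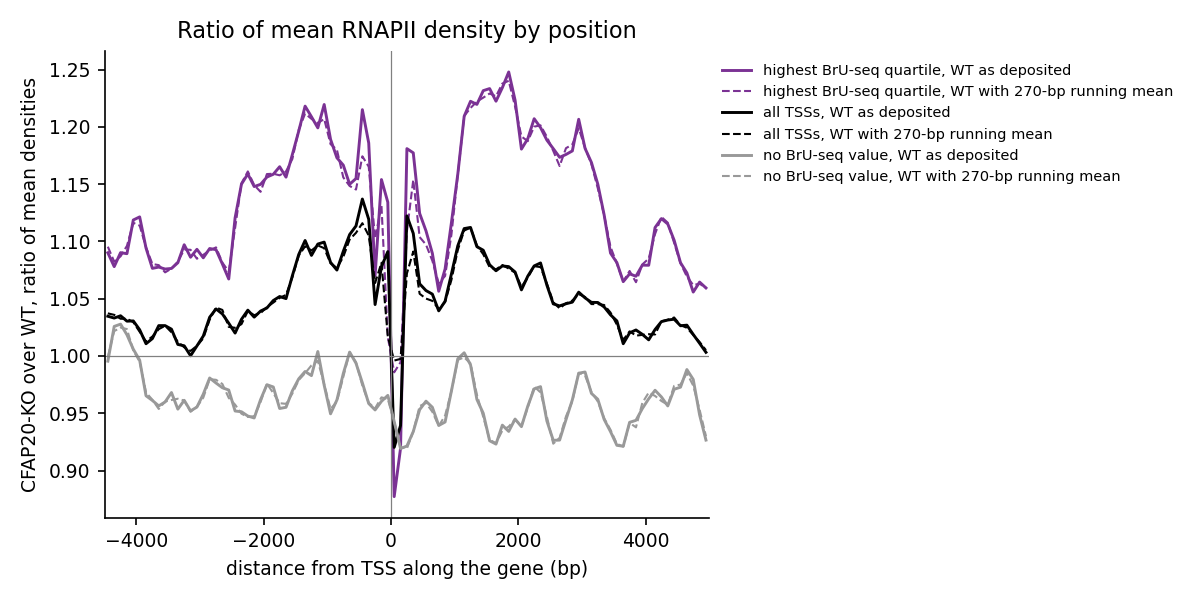
Ratio of mean RNAPII density, CFAP20-KO over WT (vertical axis), in 100-bp steps of distance from the TSS along the gene (bp, horizontal axis), for the highest BrU-seq quartile (purple), all TSSs (black) and TSSs with no BrU-seq value (grey). Solid lines use WT as deposited and dashed lines WT with a 270-bp running mean; the dip to 0.877 at 0 to 100 bp in the highest quartile becomes 0.986, while the rise to 1.25 at 1800 to 1900 bp becomes 1.24.

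The density above the distal level was shared out differently along the window from -1000 to 5000 bp. The promoter window held 46.1% of it in CFAP20-KO and 51.9% in WT, or 51.4% in WT with the running mean. Its density above the distal level was 0.435 in CFAP20-KO and 0.417 in WT, so the smaller share goes with higher values in the other windows. The divergent window held 20.5% in CFAP20-KO and 18.5% in WT. The early body held 24.1% in CFAP20-KO and 21.5% in WT, and the gene body 9.33% in CFAP20-KO and 8.16% in WT. In CFAP20/CCNC-dKO, whose fragments covered 319 bp, the promoter window held 45.4%, the divergent window 19.3%, the early body 21.6% and the gene body 13.7%. At the promoter this line stood at 0.654, below the 0.805 of WT. Unlike those of CFAP20-KO, its flank densities lay below WT, with 0.483 in CFAP20/CCNC-dKO and 0.517 in WT in the divergent window, and 0.442 in CFAP20/CCNC-dKO and 0.468 in WT in the early body.

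BrU-seq labels nascent RNA with bromouridine and so reports how much a gene is being transcribed. The deposited table gives a WT gene body value for 6305 TSSs above 0, on a scale not given in the sources used here. They were cut into quartiles, and the 3492 TSSs with no value or 0 formed a class of their own. The ratio of CFAP20-KO to WT was higher in the classes of higher transcription, and it varied more beside the promoter than in it. In the class with no value, CFAP20-KO was lower in each window: promoter density was 0.289 in CFAP20-KO and 0.307 in WT, and neither profile had a peak. The ratio there was 0.942 at the promoter, 0.956 in the early body and 0.949 in the gene body.

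In the lowest quartile promoter density was 0.386 in CFAP20-KO and 0.373 in WT, and in the second 0.751 in CFAP20-KO and 0.714 in WT. In the third it was 1.42 in CFAP20-KO and 1.36 in WT, and in the highest 1.98 in CFAP20-KO and 1.87 in WT. The promoter ratio stood between 1.03 and 1.05 in these 4 classes. The early body ratio was 1.13 in the third quartile, with 0.667 in CFAP20-KO and 0.593 in WT, and 1.17 in the highest, with 1.01 in CFAP20-KO and 0.864 in WT. The divergent upstream ratio was 1.16 in both, with 0.870 in CFAP20-KO and 0.748 in WT for the third quartile and 1.05 in CFAP20-KO and 0.908 in WT for the highest.

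In the highest quartile the gene body ratio was 1.13, with 0.701 in CFAP20-KO and 0.621 in WT. Promoter density over gene body density there was 2.84 in CFAP20-KO and 3.06 in WT. The distal window of this class was also higher in CFAP20-KO, with 0.547 against 0.497 in WT, a ratio of 1.10. Divided by the distal level of its own library, divergent upstream density was 1.92 in CFAP20-KO and 1.83 in WT, early body density 1.84 in CFAP20-KO and 1.74 in WT, and promoter density 3.61 in CFAP20-KO and 3.77 in WT. The flanks of this class were thus still higher in CFAP20-KO over their own baseline, by less, and the promoter was lower. The classes also differ in kind, with 56.0% lncRNA among TSSs with no value and 11.2% in the highest quartile. Among protein_coding TSSs the divergent upstream density was 0.671 in CFAP20-KO and 0.593 in WT and the early body density 0.589 in CFAP20-KO and 0.531 in WT. Among lncRNA TSSs promoter density was 0.415 in CFAP20-KO and 0.413 in WT.

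**Figure D2:**
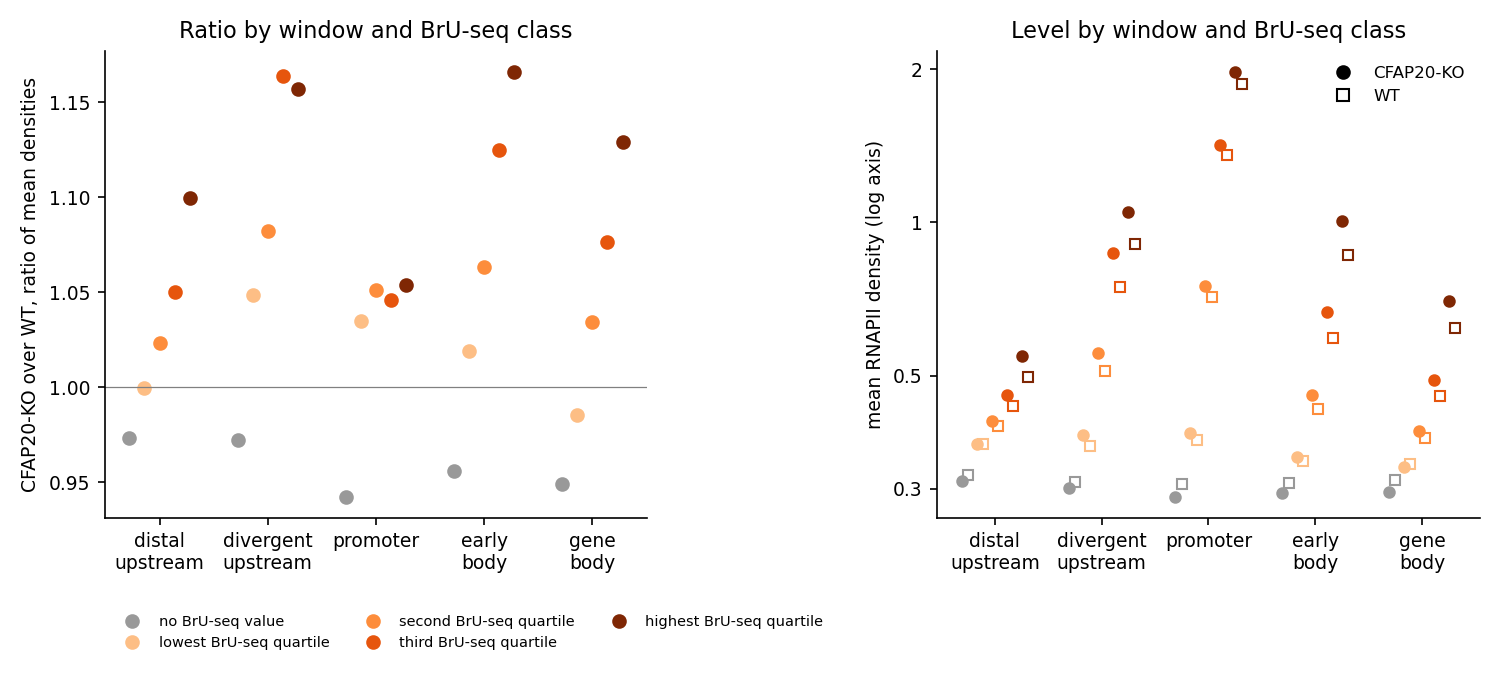
Left, ratio of mean RNAPII density, CFAP20-KO over WT (vertical axis), for 5 windows (horizontal axis) and 5 BrU-seq classes (colours, grey for no value to dark brown for the highest quartile). Right, the mean densities on a log axis, filled circles for CFAP20-KO and open squares for WT. Ratios spread from 0.956 to 1.17 in the early body, while those of the 4 quartiles lie between 1.03 and 1.05 at the promoter.

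Gene length made less difference than transcription. Promoter density was 0.657 in CFAP20-KO and 0.628 in WT for the 1334 TSSs of genes under 5000 bp, and 0.724 in CFAP20-KO and 0.70 in WT for the 4019 from 5000 to 20000 bp. It was 0.972 in CFAP20-KO and 0.938 in WT for the 2814 from 20000 to 60000 bp, and 1.00 in CFAP20-KO and 0.975 in WT for the 1630 over 60000 bp. The promoter ratio ran from 1.03 to 1.05 over these 4 classes. Over 60000 bp the distal ratio was 0.987 and the divergent upstream ratio 1.1, with 0.674 in CFAP20-KO and 0.606 in WT.

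Within the highest BrU-seq quartile, the 263 TSSs of genes under 5000 bp had promoter densities of 1.90 in CFAP20-KO and 1.74 in WT, a ratio of 1.10. The 55 TSSs of genes over 60000 bp had 1.96 in CFAP20-KO and 2.01 in WT, a ratio of 0.977. In these 55 the gene body density was 0.864 in CFAP20-KO and 0.769 in WT, and promoter over gene body 2.27 in CFAP20-KO and 2.61 in WT. The last class is small, and no library was replicated to give it an error.

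The ratio varied with promoter base composition as well. The 6305 TSSs with BrU-seq above 0 were cut into 5 classes by the GC content of 300 bases. In the lowest GC class, of at most 45% GC, the early body ratio was 0.993, with 0.457 in CFAP20-KO and 0.461 in WT. In GC class 4, from 62.0% to 70.0% GC, it was 1.17, with 0.718 in CFAP20-KO and 0.615 in WT. The promoter ratio was 0.978 in the lowest GC class and from 1.04 to 1.08 in the other 4. Transcription and GC content move together here, since median GC was 62.3% in the highest BrU-seq quartile and 47.0% in the class with no value, and the 2 were not separated. The 18 TSSs of the highest quartile with TATAAA had a promoter density of 4.93 in CFAP20-KO and 4.43 in WT, against 1.94 in CFAP20-KO and 1.84 in WT for the 1558 without it. Without CYR61 and MKNK2, left out after their values were seen, the other 16 had a promoter ratio of 1.00.

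The only replicates of WT lie in deposited windows around replication origins, which hold 1770 of the TSSs. There, ratios within a library were compared between the CFAP20-KO library and 3 WT libraries. With 1 library against 3, the smallest two-sided p that an exact permutation test can give is 0.5, so these are positions in a range and not tests. Whether the 3 WT samples came from separate cultures is not given in the sources used here. Over all 1770 TSSs, CFAP20-KO lay inside the WT range in each of 7 ratios of mean densities. Taken as medians over TSSs, the log2 of gene body over distal density lay above the WT range. It was 0.135 in CFAP20-KO and 0.084, 0.069 and 0.125 in WT, over 1560 TSSs in genes of at least 5000 bp. The other medians of this set lay inside the range.

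The log2 of divergent upstream over distal density was 0.75 in CFAP20-KO and 0.61, 0.46 and 0.89 in WT (SD 0.22, n = 3). The log2 of early body over distal density was 0.50 in CFAP20-KO and 0.40, 0.34 and 0.57 in WT (SD 0.12, n = 3). The log2 of promoter over gene body density was 1.31 in CFAP20-KO and 1.35, 1.02 and 1.53 in WT (SD 0.26, n = 3). In the highest BrU-seq quartile the same ratio was 1.45 in CFAP20-KO and 1.62, 1.29 and 1.74 in WT (SD 0.24, n = 3). In all 7 ratios of mean densities of both sets the CFAP20-KO library thus stood among the WT libraries.

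**Figure D3:**
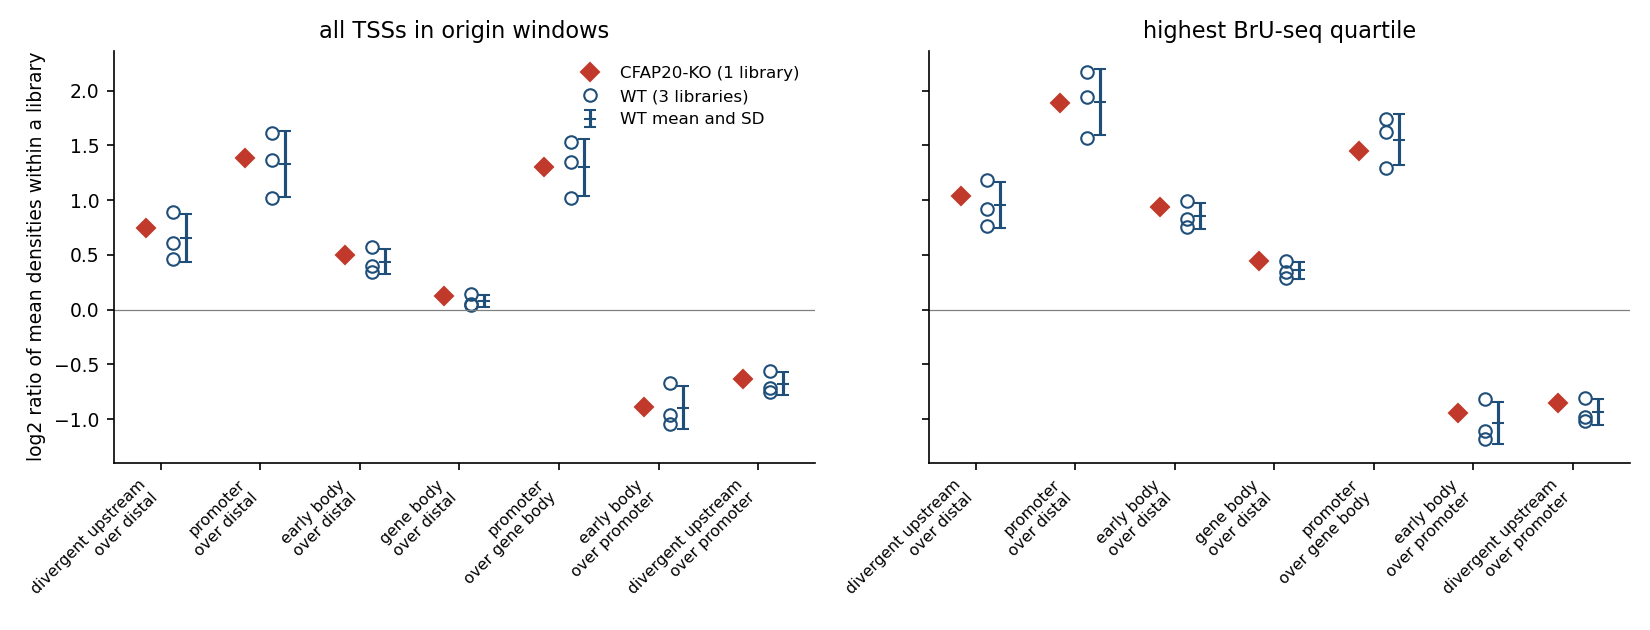
Log2 ratio of mean densities within a library (vertical axis) for 7 ratios (horizontal axis), at all 1770 TSSs in origin windows and at those of the highest BrU-seq quartile. Red diamonds are the CFAP20-KO library, open circles the 3 WT libraries, and bars the WT mean and SD; each diamond lies within the spread of its circles, such as 1.31 between 1.02 and 1.53 for promoter over gene body at all TSSs.

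Over all classes and ratios of mean densities, CFAP20-KO lay inside the WT range in 59 of 68, above it in 6 and below it in 3. Above it were 3 log2 ratios over the distal level, given with the highest WT value. They were early body under 5000 bp (0.30 against 0.26), gene body from 5000 to 20000 bp (0.088 against 0.079) and divergent upstream in the lowest quartile (-0.10 against -0.12). The rest above were ratios over the promoter, in the lowest quartile or with no BrU-seq value. The 3 below were all among the TSSs with no BrU-seq value. Their log2 of promoter over distal density was -0.20 in CFAP20-KO and -0.10, -0.00 and -0.04 in WT, so promoters without measured transcription dipped further below their surroundings in CFAP20-KO than in any WT library. Their log2 of promoter over gene body density was -0.14 in CFAP20-KO and -0.03, 0.10 and 0.11 in WT. The 316 such TSSs held few read pairs each in CFAP20-KO, and the sum over them is what these ratios rest on.

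Some differences followed chromosome position rather than the place within a gene. TSSs were grouped into blocks of 5 Mb, of which 473 held at least 10. In 20 blocks the distal ratio was under 0.7, and 13 of these lay on chromosome 7, 5 on chromosome 20, 1 on chromosome 19 and 1 on chromosome 12. In 4 blocks it was over 1.4, with 3 on chromosome 10 and 1 on chromosome 19. Within such a stretch the distal baseline differed as well as the windows at the gene.

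On chromosome 7 the low blocks lay at 60 to 75 Mb and beyond 105 Mb, limits that were set from these values. Beyond 105 Mb, 188 TSSs had a distal density of 0.206 in CFAP20-KO and 0.376 in WT and a promoter density of 0.504 in CFAP20-KO and 0.831 in WT, a distal ratio of 0.547 and a promoter ratio of 0.607. From 60 to 75 Mb, 34 TSSs had a distal ratio of 0.616 and a promoter ratio of 0.687. Between them, from 75 to 105 Mb, 109 TSSs had a distal ratio of 1.02 and a promoter ratio of 0.950. On chromosome 20 below 30 Mb, 116 TSSs had promoter densities of 0.437 in CFAP20-KO and 0.773 in WT, a ratio of 0.565 beside a distal ratio of 0.541. Beyond 55 Mb on chromosome 19, 57 TSSs had a promoter ratio of 0.509 and a distal ratio of 0.513. The ratio was higher on chromosome 10 below 35 Mb, with 1.60 at the promoter and 1.41 distally over 110 TSSs. It was also higher on chromosome 19 from 35 to 40 Mb, with 1.62 and 1.64 over 48 TSSs. The distal density of chromosome 10 below 35 Mb was 0.360 in CFAP20-KO and 0.256 in WT. On chromosomes other than 7, 10, 19 and 20 it was 0.398 in CFAP20-KO and 0.384 in WT, so WT lay further from that level. Stretches are called high or low by the ratio to WT, whichever library departs.

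The most unequal stretch was small, with 9 TSSs on chromosome 10 from 35 to 40 Mb. Its distal density was 0.355 in CFAP20-KO and 0.991 in WT, and its promoter density 0.430 in CFAP20-KO and 1.22 in WT. Here too the distal density of WT lay further from that of the chromosomes other than 7, 10, 19 and 20. On the chromosomes other than 7, 10, 19 and 20, 8110 TSSs had a distal ratio of 1.04, a divergent upstream ratio of 1.1, a promoter ratio of 1.05, an early body ratio of 1.09 and a gene body ratio of 1.05. The pattern around the TSS described above is thus present without the 4 chromosomes.

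CFAP20/CCNC-dKO also differed from the same WT library in these stretches, with distal ratios of 0.523 on chromosome 7 beyond 105 Mb, 0.477 on chromosome 20 below 30 Mb and 1.5 on chromosome 10 below 35 Mb. In origin windows of chromosome 7 beyond 105 Mb the density of WT replicate 2 was 1.03 times, and that of WT replicate 3 0.969 times, that of WT replicate 1. On chromosome 20 below 30 Mb these values were 1.02 for replicate 2 and 0.999 for replicate 3, and on chromosome 10 below 35 Mb 1.04 for replicate 2 and 1.03 for replicate 3. The 2 stretches of chromosome 19 held 2 and 1 origins, too few to compare WT libraries. The cause of the stretches was not tested.

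**Figure D4:**
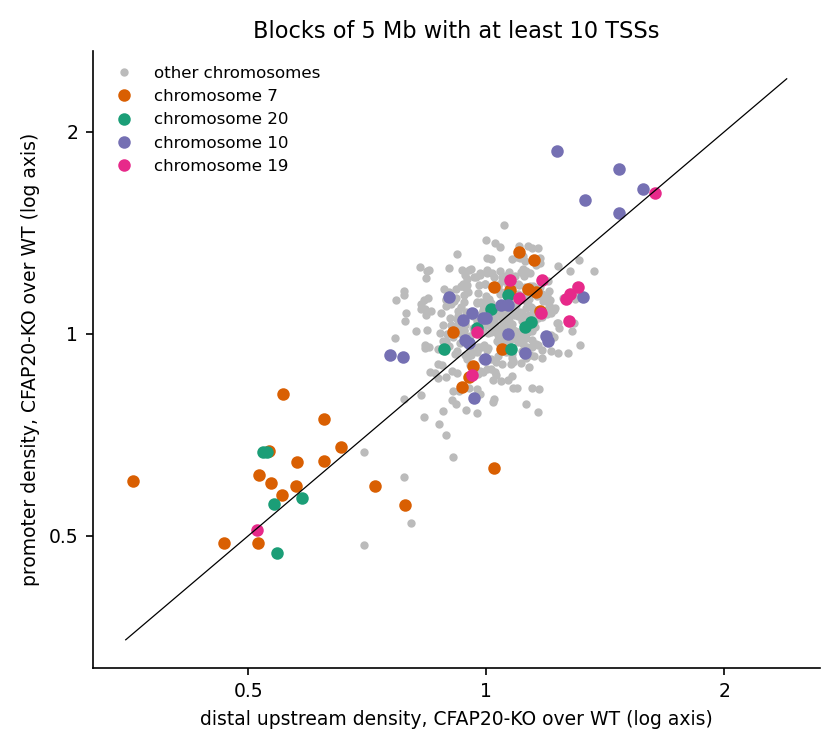
Each point is a block of 5 Mb with at least 10 TSSs, placed by its distal upstream ratio (horizontal, log axis) and its promoter ratio (vertical, log axis), both CFAP20-KO over WT, with the line of equal ratios. Coloured points of chromosomes 7, 20, 10 and 19 run along the line away from the grey cloud of other chromosomes, whose distal ratios lie between 0.70 and 1.37.

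Single promoters were called higher or lower in CFAP20-KO where the ratio lay at least 1.5-fold from the median and its 95% counting interval beyond the median. Of the 6305 TSSs with BrU-seq above 0, 190 promoters were called higher (3.01%) and 83 lower (1.32%). In the divergent upstream window 174 were called higher (2.76%) and 50 lower (0.793%), and in the early body 240 higher (3.81%) and 114 lower (1.81%). In the gene body, 232 of 5728 were higher (4.05%) and 183 lower (3.19%). By the same rule among the 4898 TSSs above the median promoter density, relative to their own higher median, 110 promoters were called higher (2.25%) and 144 lower (2.94%), so the balance of promoter calls turned with the set. These calls rest on counting error in 1 library a side and hold no variation between cultures.

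Calls lower than WT were more frequent in several of the stretches named above. Of the 83 promoters called lower, 20 lay among the 120 TSSs tested on chromosome 7 beyond 105 Mb, 8 among 60 on chromosome 20 below 30 Mb and 8 among 43 on chromosome 19 beyond 55 Mb. On chromosomes other than 7, 10, 19 and 20, 35 of 5180 were called lower and 150 higher. Of the promoters called higher, 29 were also higher in the early body, 15.3% of the promoter calls and 12.1% of the early body calls, where 3.81% of all 6305 were higher in the early body and 3.01% at the promoter.

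The 8 promoters with the highest WT density were highly occupied in both libraries, and for 4 of the 7 described here the counting interval of the ratio includes 1. CYR61, which encodes a secreted matricellular protein induced by growth factors (chromosome 1, TSS at 85580761), had a promoter density of 19.4 in CFAP20-KO and 13.6 in WT. Its ratio of 1.42 (95% counting interval 1.17 to 1.72) rests on 126 pairs in CFAP20-KO and 741 in WT. Its divergent upstream density was 3.86 in CFAP20-KO and 2.10 in WT, and its distal density 4.93 in CFAP20-KO and 3.50 in WT, so the surroundings of this gene were higher too.

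EIF1, a translation initiation factor gene (chromosome 17, 41688893), had 9.63 in CFAP20-KO and 9.99 in WT at the promoter, but 3.72 in CFAP20-KO and 2.51 in WT in the early body, a ratio of 1.48 (1.08 to 2.0). EEF1A1, which encodes the elongation factor that brings aminoacyl-tRNA to the ribosome (chromosome 6, 73521032), had 9.48 in CFAP20-KO and 9.67 in WT. PLK2, a polo-like kinase gene, had 9.03 in CFAP20-KO and 9.44 in WT, and C19orf24 7.16 in CFAP20-KO and 8.60 in WT. Their intervals include a ratio of 1. MKNK2, which encodes a kinase of the initiation factor eIF4E, had 13.1 in CFAP20-KO and 9.99 in WT, a ratio of 1.31 (1.03 to 1.65).

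UBE2S, which encodes the ubiquitin-conjugating enzyme that extends chains for the anaphase-promoting complex (chromosome 19, 55407777), was the only one of the 7 whose interval lay below 1. Its promoter density was 4.05 in CFAP20-KO and 8.18 in WT, a ratio of 0.496 (0.321 to 0.735). It lies on chromosome 19 beyond 55 Mb, and its distal density was 0.214 in CFAP20-KO and 0.393 in WT, down by a like factor. Early body density was lower too, with 0.959 in CFAP20-KO and 1.70 in WT. The gene body was not, with 1.03 in CFAP20-KO and 1.06 in WT, a ratio of 0.968 (0.633 to 1.43).

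Of the 5 promoters furthest above the median ratio by the near bound of the interval, 3 had WT densities below 0.170, namely RP11-267C16.1, UCN3 and LINC01389, and rest on 5.87 to 7.95 pairs in CFAP20-KO, and UCN3 lies in the high stretch of chromosome 10. The other 2 were well occupied. NUPR1, which encodes a stress-induced nuclear protein, on chromosome 16, had 3.00 in CFAP20-KO and 0.790 in WT, a ratio of 3.8 (2.10 to 6.63), with 19.5 pairs in CFAP20-KO and 42.9 in WT. Its distal density was 0.215 in CFAP20-KO and 0.238 in WT, so the promoter stood out over an even baseline. The density in CFAP20/CCNC-dKO was 1.38.

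FLJ35934, a lncRNA gene (chromosome 17, 18411159), had 4.82 in CFAP20-KO and 1.51 in WT at the promoter, a ratio of 3.19 (2.04 to 4.86). Its divergent upstream density was 2.7 in CFAP20-KO and 0.726 in WT and its early body density 1.25 in CFAP20-KO and 0.616 in WT, with distal densities of 0.344 in CFAP20-KO and 0.366 in WT. It was thus higher on both sides of the TSS over a level baseline.

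Of the 5 promoters furthest below, ZNF274 and PTPRA lie in the low stretches. POM121C, a nuclear pore membrane protein gene (chromosome 7, 75486271), had 0.586 in CFAP20-KO and 3.76 in WT, a ratio of 0.156 (0.0403 to 0.414). Its distal density was 0.0766 in CFAP20-KO and 0.258 in WT, and the distal ratio of its block of 5 Mb was 0.788. POM121C has near-identical copies on the same chromosome, so reads may be split between them and its value is uncertain. ZNF274, a KRAB zinc finger gene on chromosome 19, had 0.565 in CFAP20-KO and 3.04 in WT (ratio 0.186, 0.0464 to 0.503), and PTPRA, a receptor tyrosine phosphatase gene on chromosome 20, had 1.28 in CFAP20-KO and 4.17 in WT (ratio 0.307, 0.133 to 0.607).

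Outside these stretches, TMEM173, the STING gene of the response to cytosolic DNA, and CUL4B, which encodes a ubiquitin ligase scaffold, had less than 1 pair at the promoter in CFAP20-KO. TMEM173 had 79.4 pairs in WT and CUL4B 64.6. The upper limits of their ratios were 0.467 for TMEM173 and 0.496 for CUL4B. Their distal densities were level, with 0.346 in CFAP20-KO and 0.309 in WT for TMEM173 and 0.639 in CFAP20-KO and 0.541 in WT for CUL4B. The early body of TMEM173 had 0.597 in CFAP20-KO and 0.743 in WT, and that of CUL4B 0.360 in CFAP20-KO and 0.812 in WT. In CFAP20/CCNC-dKO the promoter density was 1.08 at TMEM173 and 0.299 at CUL4B.

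In the early body, the 5 genes furthest above were LGALS4, RP11-619A14.3, EIF3K, IP6K3 and SPSB1, and all but SPSB1 had WT densities from 0.201 to 0.334. SPSB1, which encodes a SOCS box adaptor of ubiquitin ligases (chromosome 1, 9292880), had an early body density of 4.04 in CFAP20-KO and 1.52 in WT, a ratio of 2.67 (1.94 to 3.62) from 56.3 pairs in CFAP20-KO and 176 in WT. Its promoter density was 2.97 in CFAP20-KO and 3.78 in WT, so the excess lay past the promoter window. In CFAP20/CCNC-dKO the early body density was 2.29. EIF3K and LGALS4 lie on chromosome 19 between 35 and 40 Mb, where all windows were higher.

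The 5 genes furthest below in the early body included PCAT5, RP11-258F22.1 and RP11-322I2.1, all among the 9 TSSs of chromosome 10 from 35 to 40 Mb. PCAT5, a prostate cancer associated lncRNA, had 0.11 in CFAP20-KO and 1.30 in WT in the early body, beside a distal density of 0.384 in CFAP20-KO and 1.51 in WT. BPGM and CSNK1G3 had less than 1 pair in CFAP20-KO, and the upper limits of their ratios were 0.520 for BPGM, in the low stretch of chromosome 7, and 0.584 for CSNK1G3.

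In the gene body, COL1A1, which encodes the alpha 1 chain of type I collagen (chromosome 17, 50201632), had 1.55 in CFAP20-KO and 0.633 in WT, a ratio of 2.45 (1.70 to 3.46). Its early body density was 1.86 in CFAP20-KO and 0.981 in WT, while its promoter density, 1.16 in CFAP20-KO and 0.837 in WT, had an interval that includes 1. KPNA2, an importin alpha gene (chromosome 17, 68035519), had a gene body density of 1.75 in CFAP20-KO and 0.749 in WT, a ratio of 2.34 (1.66 to 3.23). OPTN, an autophagy receptor gene in the high stretch of chromosome 10, had 0.852 in CFAP20-KO and 0.298 in WT. RP11-1212A22.4 had 0.144 in CFAP20-KO and 0.0130 in WT, from 4.01 pairs in CFAP20-KO and 3.03 in WT, with 0 pairs in its other windows in CFAP20-KO, and LGALS4 completed the 5.

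Of the 5 genes furthest below in the gene body, RP5-988G17.1 and RP4-797C5.2 had 0 pairs in CFAP20-KO, where a count of 0 allows up to 3, and 86.2 and 76.6 pairs in WT. Both lie in low stretches, on chromosomes 20 and 7, as do PRNP, the prion protein gene on chromosome 20, with 0.0530 in CFAP20-KO and 0.711 in WT, and, on chromosome 10, PCAT5. PRLR, the prolactin receptor gene on chromosome 5, had less than 1 pair in CFAP20-KO, beside a gene body density of 0.333 in WT.

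In the divergent upstream window, C5orf15 (chromosome 5, 133968787) had 3.34 in CFAP20-KO and 1.08 in WT, a ratio of 3.10 (1.87 to 4.98), at a promoter density of 3.8 in CFAP20-KO and 3.04 in WT. FLJ37505, POMK, FLJ35934 and RP11-1069G10.2 made up the other genes furthest above, with ratios from 3.41 to 6.93. The gene furthest below was RP11-221N13.4, a lncRNA gene (chromosome 12, 65644334). Its divergent upstream density was 2.21 in CFAP20-KO and 6.60 in WT, a ratio of 0.334 (0.191 to 0.546), from 16.4 pairs in CFAP20-KO and 410 in WT. It was 0.519 in CFAP20/CCNC-dKO. Its promoter density was 0.725 in CFAP20-KO and 0.711 in WT, so the difference was upstream of this TSS and not at it. NDUFA5, C19orf18, ZNF37A and SFR1 followed, the first 3 of them in low stretches.

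The promoter to gene body ratio was lowest relative to WT at SNRNP70, ZDHHC7, ITGA11, RNF4 and MSL1. SNRNP70, which encodes the 70K protein of the U1 snRNP (chromosome 19, 49085423), had a promoter density of 1.98 in CFAP20-KO and 2.81 in WT and a gene body density of 1.26 in CFAP20-KO and 0.588 in WT. Its promoter to gene body ratio differed by -1.58 on the log2 scale. RNF4, a SUMO-targeted ubiquitin ligase gene, differed by -2.02, with a promoter density of 0.642 in CFAP20-KO and 2.10 in WT, and a gene body density of 0.686 in CFAP20-KO and 0.507 in WT. The 5 genes highest by this ratio, TMEM178A, RSPO2, PRLR, TIE1 and LGR6, had WT promoter densities from 0.140 to 0.248.

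Lists of genes by function were described by their counts and medians, beside those of the 4898 TSSs above the median promoter density. In these 4898 the median log2 ratio, with a pseudocount of 0.0418, was 0.14 in the divergent window, 0.17 at the promoter and 0.12 in the early body. By fold alone 803 of their promoters (16.4%) were higher and 806 (16.5%) lower. With the counting interval as well, 2.25% of promoters were called higher and 2.94% lower, 2.63% of divergent windows higher and 1.2% lower, and 3.88% of early bodies higher and 2.2% lower. The calls of the lists below are relative to the medians of these 4898, which lie above those of the 6305 TSSs with BrU-seq above 0. Since a low TSS passes this filter through a high value in the noisier library, these medians lie above those over all TSSs.

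Actin cytoskeleton and matrix genes showed the largest early body values of the lists with more than 2 members measured. The median log2 ratio in the early body was 0.76 over 6 of 18 genes, and 4 of the 6 were called higher, COL1A1 and FLNA among them. FLNA, which encodes the actin crosslinker filamin A, had 2.43 in CFAP20-KO and 1.36 in WT, a ratio of 1.79 (1.20 to 2.61). ITGA5, the fibronectin receptor alpha subunit gene, had 2.36 in CFAP20-KO and 1.45 in WT, a ratio of 1.62 (1.08 to 2.37) that was called against the median of the 6305 TSSs with BrU-seq above 0 and not against that of the 4898, with distal densities of 1.94 in CFAP20-KO and 0.817 in WT. No promoter of the 6 was called, and the mean promoter density of the list was 3.43 in CFAP20-KO and 2.76 in WT.

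Of the immediate early genes, the transcription factors and signalling genes induced within minutes of stimulation, 11 of 20 were measured. None was called at the promoter, where the list averaged 4.48 in CFAP20-KO and 3.75 in WT. In the divergent window 3 were called higher and 1 lower, and in the early body 1 higher. Of 6 gene bodies 2 were called lower and none higher, with a mean of 1.01 in CFAP20-KO and 1.14 in WT. Of the 5728 gene bodies with BrU-seq above 0, 3.19% were called lower and 4.05% higher, against their own median. KLF2, a Kruppel-like factor gene, had 6.56 in CFAP20-KO and 6.39 in WT at the promoter and 1.80 in CFAP20-KO and 0.900 in WT upstream. MYC had a promoter density of 6.90 in CFAP20-KO and 5.07 in WT, with an interval of the ratio from 0.970 to 1.87. DUSP5, a MAP kinase phosphatase gene, had 5.05 in CFAP20-KO and 6.05 in WT.

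Among genes of the pausing machinery 4 of 17 were measured. SUPT5H, which encodes the large subunit of DSIF, had an early body density of 2.86 in CFAP20-KO and 1.73 in WT, a ratio of 1.65 (1.14 to 2.33), and it lies on chromosome 19 between 35 and 40 Mb with distal densities of 1.00 in CFAP20-KO and 0.434 in WT. AFF1, a super elongation complex scaffold gene, had promoter densities of 5.22 in CFAP20-KO and 4.70 in WT. CCNT1, the cyclin T1 gene of P-TEFb, had 1.26 in CFAP20-KO and 2.28 in WT at the promoter, with an interval of the ratio from 0.237 to 1.12. It was called lower against the median of the 4898 TSSs and not against that of the 6305 TSSs with BrU-seq above 0.

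Of the Mediator genes, 7 of 24 were measured and CCNC was not among them. The median log2 ratio of their promoters was -0.46, and the mean promoter density was 1.13 in CFAP20-KO and 1.44 in WT. None passed both criteria at the promoter. In the divergent window 2 of the 7 were called higher and none lower, where 2.63% of the 4898 were called higher. In the gene body 1 was called lower and none higher, where 3.19% of the 5728 with BrU-seq above 0 were called lower against their own median. At the promoter MED7 had 0.846 in CFAP20-KO and 1.72 in WT, from 5.50 pairs in CFAP20-KO, with an interval of the ratio from 0.166 to 1.14. MED17 had 2.08 in CFAP20-KO and 2.15 in WT there, and a divergent upstream ratio of 2.81 (1.26 to 5.77). The 6 measured of 19 cilium genes had a median log2 promoter ratio of -0.38, and none was called at the promoter. In the early body 1 was called lower and none higher, where 2.2% of the 4898 were called lower. At the promoter, values were as follows. BBS2, a BBSome subunit gene, had 1.5 in CFAP20-KO and 1.84 in WT, and IFT81, an intraflagellar transport gene, 1.13 in CFAP20-KO and 1.60 in WT.

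Of the replication origin and fork genes 11 of 23 were measured. In the early body 2 were called higher and none lower, and at the promoter 1 was called lower. CDC6, a loader of the replicative helicase (chromosome 17, 40287633), had an early body density of 1.88 in CFAP20-KO and 0.702 in WT, a ratio of 2.67 (1.65 to 4.19), beside promoter densities of 3.24 in CFAP20-KO and 2.58 in WT. GINS1, which encodes a subunit of the same helicase, had 0.315 in CFAP20-KO and 1.58 in WT at the promoter, a ratio of 0.199 (0.0245 to 0.730) from 2.05 pairs in CFAP20-KO, and lies in the low stretch of chromosome 20.

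The cytosolic ribosomal protein list, which includes EEF1A1, had 4 of 19 genes measured and no call in any window, with a mean promoter density of 5.33 in CFAP20-KO and 4.83 in WT. RPS24 had 5.73 in CFAP20-KO and 4.25 in WT, and RPS14 3.67 in CFAP20-KO and 3.19 in WT. Of the genes that act on R-loops and transcription stress 6 of 19 were measured, and none was called at the promoter. In the divergent window their median log2 ratio was 0.72, with a mean of 0.878 in CFAP20-KO and 0.499 in WT, and 1 was called higher, as was 1 in the early body. DHX9, an RNA helicase gene, had promoter densities of 1.92 in CFAP20-KO and 2.26 in WT. Of the RNAPII subunit genes 2 of 12, of the long genes 1 of 16 and of the cholesterol synthesis genes 0 of 12 were measured, too few to describe.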

How the data were processed

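RPB1 ChIP-seq of untreated CFAP20-KO replicate 1 and WT replicate 1 was compared, after fixation with DSG and formaldehyde per the labels' protocols. The authors deposited, for each TSS, a spike-in normalised density (a signal) in 10-bp bins over 5000 bp on each side. They also deposited a WT BrU-seq signal per gene, whose scale is not given in the sources used here, and RNAPII signal in 200-bp bins around replication origins for 3 WT libraries. Origin positions and TSS distances, entered as score values, were used as deposited by the authors. The submitters' processing notes name BWA 0.7.17, HOMER 4.8.2, SAMtools, Trim Galore 0.6.5 and FastQC 0.11.9, and the builds hg38 and BDGP6, with no role or order. Of the columns with values per sample, 1 was not used.

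Densities were whole multiples of 1 step per library, and an isolated fragment gave 2 steps in 91.3% of islands in CFAP20-KO and 86.9% in WT, so 1 read pair was taken as 2 steps and pair counts are estimates. Intervals are 95% Clopper-Pearson intervals on pair counts and cover counting error only. For log2 ratios, 0.0418 was added to each density as a pseudocount, and the filter kept TSSs above the median promoter density of 0.418. The filtered medians were the planned summary. Ratios of mean densities over all TSSs, which the report leads with, and calls with a counting interval were chosen after seeing the data, because a low TSS passes the filter through noise in the shallower library. WT was smoothed over 270 bp, which adds the variance of the longer coverage. The counting intervals and the peak measures were tested on simulated data. The members, gene lists and comparisons were chosen with earlier results of these data known.

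Named genes are the 8 with the highest WT promoter density, the 5 highest and 5 lowest in each window by the bound of the interval nearer to the median ratio, likewise for promoter over gene body density, and up to 4 of each list by WT density. Of 9777 genes, the 352 with no GENCODE 44 transcript start within 1000 bp could not be named. Some genes and sequences that the rule would name are not reported here. Promoter sequences were read from hg38. Python 3.11.15, numpy 2.4.6, pandas 2.3.3, scipy 1.17.1 and matplotlib 3.10.9 were used. Alternatives covered the filter, pseudocount, smoothing, centring, scaling, fold and left-out WT libraries.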

Additional observations from a re-analysis of the deposited data

How the results depend on the processing

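Of 114 alternatives to 20 results, 99 kept the result within its margin, 11 moved it and 4 reversed it, and 25 of the 114 were chosen after seeing the data. For the window ratios the margin was the SD of within-library ratios between WT libraries, which is not an error of the ratio to WT. It was 0.30 beside a median log2 promoter ratio of 0.17, and 0.22 beside 0.14 in the divergent window. A change of sign could there count as kept, so the 99 do not measure how firm these ratios are. No alternative compares CFAP20-KO replicates, since there is 1 library. No paired analysis was possible because the groups share only replicate number 1. The density filter mattered most. Without it the median log2 gene body ratio was 0.0084, against 0.08 with it. The median promoter ratio was 0.17 with the filter and -0.03 without it, within the spread of WT libraries. For TSSs with no BrU-seq value the median was 0.62 with the filter, -0.16 without it and -0.086 as a ratio of means. For the lowest quartile it was 0.47 with the filter, -0.037 without it and 0.049 as a ratio of means, and for genes under 5000 bp 0.27 with the filter and -0.081 without it. The peak of CFAP20-KO was 400 bp wider than that of WT as deposited, 130 bp wider with WT smoothed over 270 bp, 220 bp with 150 bp and 290 bp without the top 1% of TSSs. Without that 1% the summit shift was -10 bp, against 10 bp, and the cause was not tested. By fold alone 803 promoters were higher and 806 lower. A fold of 2 left 257 higher and 318 lower, the counting interval 110 higher and 144 lower, and ratios that were not centred gave 1201 higher and 535 lower. Leaving out each WT library in turn moved the log2 difference of CFAP20-KO from the WT mean in promoter over gene body density between -0.14 and 0.12, around 0.01. The depth of CFAP20-KO, with a median of 2.92 pairs a promoter, limits any single TSS.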

Other observations

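Some TSSs in the comparison lay close together or carried sequence features that the results above did not use. Another listed TSS lay within 5000 bp of 184 of the 9797. In the highest BrU-seq quartile, the 987 promoters with GGGCGG had a promoter density of 2.18 in CFAP20-KO and 2.08 in WT, and the 589 without it 1.63 in CFAP20-KO and 1.54 in WT. The ratio was 1.05 with the motif and 1.06 without it. In the early body of the same promoters it was 1.18 with GGGCGG and 1.14 without it. CCAAT made less difference, with an early body ratio of 1.17 over the 614 promoters that hold it and 1.16 over the 962 that do not.

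EXT1, which encodes a heparan sulfate polymerase, was the only measured gene of the long gene list. Its divergent upstream density was 5.08 in CFAP20-KO and 2.79 in WT, a ratio of 1.82 (95% counting interval 1.25 to 2.60). Its promoter density was 4.8 in CFAP20-KO and 3.98 in WT, and its early body density 1.34 in CFAP20-KO and 1.31 in WT. POLR2G, which encodes an RNAPII subunit, had an early body density of 0.896 in CFAP20-KO and 0.397 in WT, a ratio of 2.26 (1.10 to 4.29), from 12.5 pairs in CFAP20-KO and 46.2 in WT.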
